A study of Homo sapiens with 36 samples.

Results

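COLO205, an established human colon adenocarcinoma line, was compared after 24 h with 0.5 µM JQ1 and after 24 h with DMSO. The members are the 3 JQ1 and the 3 DMSO libraries that the labels assign to this line, 6 of the 36 libraries in the series. JQ1 is a small molecule that binds the bromodomains of the BET proteins, and DMSO is the vehicle control. The same dose and time were used in 5 other colon cancer lines, HT-29, HCT116, SW480, HCT-15 and COLO320, with 3 libraries per group. All cells were harvested while dividing in log phase, RNA was purified on columns with DNase, and libraries came from a TruSeq RNA kit. The data hold 1 line at 1 dose and 1 time. The labels speak of triplicates without naming separate cultures, so p-values measure only the spread between libraries, which may be technical.

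Levels are in RPKM, reads per kilobase of gene, scaled for library size. Of 26468 genes in the table, 12532 reached at least 1 RPKM in 3 or more of the 6 libraries and were tested. A gene can pass this filter through 1 group alone, and its direction is then set in advance. Changes are JQ1 minus DMSO on the log2(RPKM + 0.5) scale, which understates the change of low genes. A gene was called, and is said to have risen or fallen, at an adjusted p under 0.05 from limma over all 12532 genes. Errors are SDs over 3 libraries for levels and standard errors for log2 changes.

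BET proteins, among them BRD2 and BRD3, read acetylated lysines on histones and help release paused RNA polymerase II through the kinase P-TEFb. In many tumour lines they sit at high density on enhancers of lineage and growth genes, among them those of MYC. The HEXIM1 protein holds P-TEFb inactive, and its transcript is widely used as a readout of BET inhibition.

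Each of the 6 libraries had between 20.2 and 26.0 M reads on genes, and replicates correlated at r = 0.996 to 0.997 across genes, which are not independent of each other. The line's epithelial identity was visible in the levels, with 672 ± 4.84 RPKM in JQ1 cells and 808 ± 11.2 in DMSO cells for EPCAM and 962 ± 5.30 RPKM in JQ1 cells and 866 ± 23.7 in DMSO cells for KRT18. Of 12 colon epithelium markers 11 passed the filter, and KRT20 did not. CDX2 passed through its JQ1 libraries alone, with 0.330 ± 0.118 RPKM in DMSO cells. CDX1, with 0.468 ± 0.0475 RPKM in JQ1 cells, and CEACAM5 passed through their DMSO libraries alone. Summed levels of 9 fibroblast markers were 0.339 to 0.539 RPKM in JQ1 libraries and 0.494 to 0.619 in DMSO libraries. Those of 5 endothelial markers reached at most 0.0216 RPKM. Of 9 leukocyte markers, CD68 and LYZ passed while PTPRC, which defines leukocytes, was at 0 in all 6 libraries and CD3E, a T cell gene, in 5 of them. Their summed level was 609.9 to 640.9 RPKM in JQ1 libraries and 1203 to 1224 in DMSO libraries, nearly all of it from LYZ and CD68. LYZ, a secreted lysozyme that intestinal epithelium also makes, had 525 ± 14.5 RPKM in JQ1 cells and 1057 ± 13.7 in DMSO cells. CD68, a lysosomal membrane glycoprotein, had 105 ± 4.06 RPKM in JQ1 cells and 158 ± 2.66 in DMSO cells.

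JQ1 moved most measured genes by a small amount. In bulk samples fewer cells of a type and less RNA per cell cannot be told apart. Of 12532 genes, 4840 rose (38.6%) and 5359 fell (42.8%), 81.4% together. Each count of list members that rose or fell is to be read against these shares. Of the called genes 6575 (64.5%) changed by less than 1.5-fold. At 2-fold or more, 523 rose (4.17%) and 843 fell (6.73%), and at 4-fold or more 62 rose and 160 fell. The JQ1 and DMSO libraries did not overlap for 82.9% of all genes, so a gap between the groups is common in these data. For the largest rises and falls named below, a gap and a call were conditions of naming. The median change of all tested genes was −0.02. Under quantile scaling more genes rose (5334) than fell (4889), so the balance of small changes rests on the scaling. Falls of 2-fold or more made up 11.2% of the 3482 genes averaging under 5 RPKM and 5.42% of the 738 genes above 100 RPKM. Rises made up 5.86% and 2.71% of these genes. Of 528 long noncoding RNA genes 246 rose and 171 fell, while of 151 small nucleolar RNA genes 7 rose and 44 fell.

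**Figure D1:**
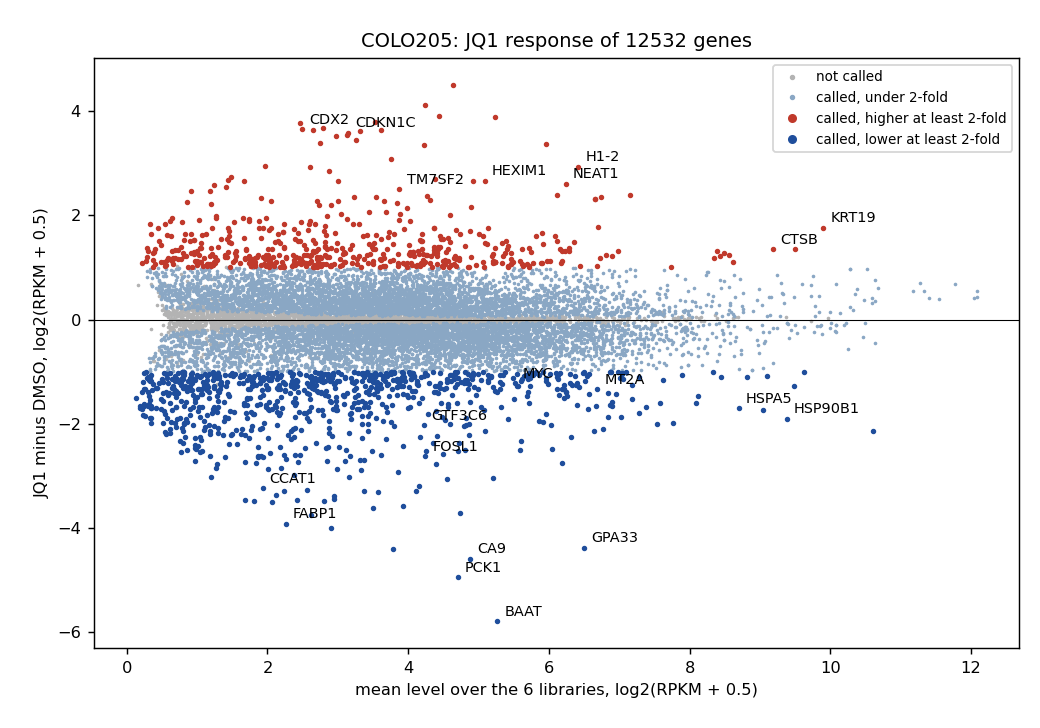
Change with JQ1 against mean level for 12532 genes in COLO205. The x axis is the mean level over the 6 libraries and the y axis JQ1 minus DMSO, both on the log2(RPKM + 0.5) scale, with points coloured by call and by the 2-fold line. The deepest fall is that of BAAT (−5.80), and HSP90B1, HSPA5 and GPA33 fall at high levels while KRT19 and H1-2 rise.

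The genes used to read out BET inhibition moved strongly. HEXIM1 (Entrez 10614) had 59.4, 58 and 57.4 RPKM in JQ1 cells, against 8.35, 8.81 and 9.13 RPKM in DMSO cells. All JQ1 values lay above all DMSO values, a change of 2.67 ± 0.0351 on the log2 scale (adjusted p = 5.29e-10). Of 10 listed readout genes 8 were tested. Of these 6 rose and 2 fell, with a median of 1.92, beside 38.6% and 42.8% of all tested genes. Among the risers 3 are histone genes that are also counted below. SERPINI1, a secreted protease inhibitor, had 1.69 ± 0.236 RPKM in JQ1 cells and 0.470 ± 0.124 in DMSO cells, a change of 1.18 (adjusted p = 3.35e-05). The readout genes that fell were ZMYND8, which binds acetylated chromatin, with 10.4 ± 0.359 RPKM in JQ1 cells and 32.6 ± 0.858 in DMSO cells, and the transporter gene SLC12A8, with 0.446 ± 0.0207 RPKM in JQ1 cells and 4.50 ± 0.339 in DMSO cells. SERPINI1 passed the filter through its JQ1 libraries alone and SLC12A8 through its DMSO libraries alone, so their directions were set in advance.

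Genes of the BET and elongation machinery rose on balance. Of 16 tested, 12 rose, 1 fell and 3 were not called, with a median of 0.32 against −0.02 over all genes. BRD2 (Entrez 6046), itself a BET protein, had 50.8, 50.9 and 50.8 RPKM in JQ1 cells, against 38.1, 38.7 and 38.5 RPKM in DMSO cells. The groups did not overlap, and the change was 0.40 ± 0.0196 on the log2 scale (adjusted p = 2.82e-07). Its relative BRD3 changed by 0.21. The larger rises after HEXIM1 were in super elongation complex genes, ELL2 (1.16), AFF1 (0.91) and AFF4 (0.85). P-TEFb's kinase gene CDK9 rose by 0.41. NELFE, a subunit of the pausing factor NELF, was the member that fell, with 43.3 ± 1.11 RPKM in JQ1 cells and 57.6 ± 0.330 in DMSO cells.

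**Figure D2:**
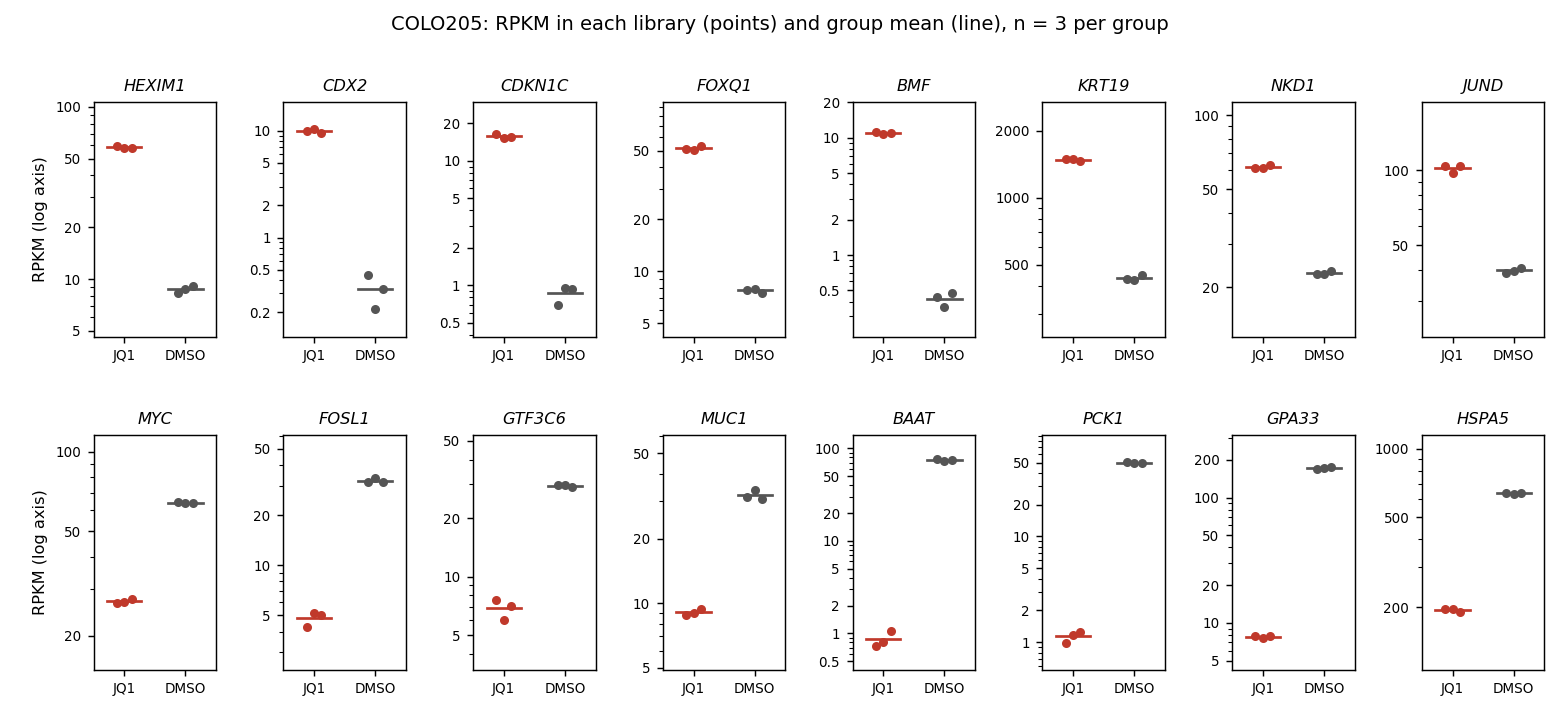
RPKM of 16 genes in each of the 6 libraries, on log axes with a separate range per panel. Points are libraries, JQ1 left and DMSO right, and lines are group means (n = 3). In every panel the JQ1 and DMSO libraries are separate, with the upper row higher in JQ1 and the lower row lower in JQ1.

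MYC and its noncoding neighbour fell. MYC (Entrez 4609), a transcription factor of growth genes, had 26.7, 26.8 and 27.7 RPKM in JQ1 cells, against 64.4, 64.1 and 63.7 RPKM in DMSO cells. The lowest DMSO value was well above the highest JQ1 value, a change of −1.23 ± 0.0227 on the log2 scale (adjusted p = 1.75e-09). The noncoding transcript CCAT1 (Entrez 100507056), made upstream of MYC in colon cancer, had 0.262, 0.217 and 0.203 RPKM in JQ1 cells, against 6.18, 6.27 and 6.73 RPKM in DMSO cells. Again the groups were apart, with a change of −3.24 ± 0.0707 on the log2 scale (adjusted p = 3.8e-09). CCAT1 passed the filter through its DMSO libraries alone, so its direction was set in advance. The 45 CCAT1 reads over the JQ1 libraries compare with 1162 over the DMSO libraries.

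Within the MYC and MAX network, 7 of 13 genes rose and 6 fell, beside 38.6% and 42.8% of all tested genes. MYCN fell alongside MYC, with 7.77 ± 0.188 RPKM in JQ1 cells and 15.3 ± 0.627 in DMSO cells, and MLX, the partner of the glucose-sensing Mondo factors, changed by −0.90. MYCL, the third MYC paralogue, had 14.6 ± 0.246 RPKM in JQ1 cells and 5.85 ± 0.214 in DMSO cells. MXD4, a repressor that competes with MYC for MAX, had 6.32 ± 0.0561 RPKM in JQ1 cells and 2.09 ± 0.108 in DMSO cells, a change of 1.40. MAX itself changed by only 0.11.

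Every tested MYC target on the list fell. The count was 24 of 24 (23 under quantile scaling), of which 9 fell at least 2-fold, against 42.8% of all genes lower and 6.73% lower at 2-fold. The median was −0.85. SLC19A1 (Entrez 6573), the reduced folate carrier, had 1.98, 1.83 and 1.88 RPKM in JQ1 cells, against 17.4, 16.5 and 17.8 RPKM in DMSO cells. The groups did not overlap, and the change was −2.89 ± 0.0469 on the log2 scale (adjusted p = 1.13e-09). The mitochondrial chaperonin pair followed, with HSPD1 at 61.9 ± 1.75 RPKM in JQ1 cells and 166 ± 3.03 in DMSO cells and HSPE1 at 38.5 ± 1.37 RPKM in JQ1 cells and 84.5 ± 1.75 in DMSO cells. The nucleotide kinase NME1 changed by −1.16 and the spermidine synthase SRM by −1.13. Smallest was APEX1, a DNA repair enzyme, at −0.13. The letters CACGTG, the E-box that MYC and MAX bind, occurred on either strand in the promoters of 11 of 22 listed MYC targets with a sequence (50%), against 10.6% of the 9507 tested genes with one. Among genes that fell at least 2-fold the share was 10.3%, and among those that rose at least 2-fold 7.95%. Promoters here and below are RefSeq sequences of GRCh38.p14, from 250 bases before to 50 after the start, 300 in all.

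Ribosome production genes moved with them. Of 28 ribosome biogenesis genes 24 fell, 1 rose and 3 were not called, with a median of −0.57. TCOF1, the nucleolar factor treacle, had 8.78 ± 0.123 RPKM in JQ1 cells and 23.5 ± 1.07 in DMSO cells, and LYAR, a nucleolar growth regulator, had 15.9 ± 0.443 RPKM in JQ1 cells and 40.8 ± 1.66 in DMSO cells. NOP16 changed by −1.06 and the helicase DDX21 by −0.88. The count that rose was 2 under quantile scaling and 3 under limma's voom on read counts recovered from the RPKM values. RRP12 changed by 0.15, and its call was lost when DMSO replicate 1, JQ1 replicate 2 or JQ1 replicate 3 was left out (adjusted p = 0.0501 to 0.0517). Ribosomal protein genes did not move as a group, with 6 of 15 higher and 6 lower and a median of 0.01. Of all tested genes 38.6% rose and 42.8% fell.

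The RNA polymerase III list held 2 of the sharper falls. GTF3C6 (Entrez 112495), a TFIIIC subunit, had 7.58, 5.96 and 7.06 RPKM in JQ1 cells, against 29.5, 29.8 and 29.1 RPKM in DMSO cells. The JQ1 libraries were all below the DMSO libraries, a change of −2.03 ± 0.0731 on the log2 scale (adjusted p = 4.69e-08). POLR3G, a polymerase III subunit typical of proliferating and stem cells, had 0.915 ± 0.0965 RPKM in JQ1 cells and 7.18 ± 0.328 in DMSO cells, a change of −2.44. Its alternative, POLR3GL, had 33.9 ± 0.304 RPKM in JQ1 cells and 20.4 ± 0.606 in DMSO cells, a change of 0.72. GTF3C1, the largest TFIIIC subunit, also rose (0.80). Over the 18 genes 11 fell and 4 rose, beside 42.8% and 38.6% of all tested genes, and the median was −0.19.

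Replication genes fell as a block while mitotic genes split. All 24 G1/S and licensing genes fell (23 under quantile scaling), 4 of them at least 2-fold, with a median of −0.65. E2F2, an activator of S-phase genes, had 1.60 ± 0.0822 RPKM in JQ1 cells and 10.4 ± 0.278 in DMSO cells. CDC25A, the phosphatase that activates CDK2, had 4.63 ± 0.103 RPKM in JQ1 cells and 15.9 ± 0.557 in DMSO cells. The helicase subunit MCM5 changed by −1.15, the loader CDC6 by −1.06 and PCNA, the polymerase clamp, by −0.48. All 18 homologous recombination and Fanconi genes fell too, with a median of −0.66. The checkpoint kinase CHEK1 changed by −0.94. Of 20 mitosis genes 13 fell and 5 rose, beside 42.8% and 38.6% of all tested genes, and the median was −0.21. AURKA, a spindle pole kinase, had 37.1 ± 1.05 RPKM in JQ1 cells and 74.9 ± 2.00 in DMSO cells, and the ubiquitin enzyme UBE2C changed by −0.78. The proliferation marker MKI67 had 38 ± 1.91 RPKM in JQ1 cells and 30.5 ± 1.17 in DMSO cells, and the kinetochore protein CENPF, 40.2 ± 1.21 RPKM in JQ1 cells and 26.6 ± 0.639 in DMSO cells, both higher with JQ1.

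Most brakes on the cell cycle rose, with CDKN1C far ahead. CDKN1C (Entrez 1028), the CDK inhibitor p57 from an imprinted locus, had 16.5, 15.4 and 15.6 RPKM in JQ1 cells, against 0.699, 0.949 and 0.940 RPKM in DMSO cells. JQ1 and DMSO values were an order of magnitude apart, a change of 3.59 ± 0.0792 on the log2 scale (adjusted p = 4.07e-09). CDKN1C passed the filter through its JQ1 libraries alone, so its direction was set in advance. CDKN1A (Entrez 1026), the inhibitor p21, had 4.53, 4.37 and 4.31 RPKM in JQ1 cells, against 2.34, 1.84 and 2.15 RPKM in DMSO cells. These groups were also separate, at a lower level and with a change of 0.92 ± 0.0768 on the log2 scale (adjusted p = 7.42e-06). CDKN2B had 2.35 ± 0.0621 RPKM in JQ1 cells and 0.902 ± 0.0917 in DMSO cells, and the stress gene GADD45B changed by 0.92. Of the 15 brakes 10 rose and 3 fell, beside 38.6% and 42.8% of all tested genes, with a median of 0.37. The fallers were the pocket protein RBL1 (−0.72) and the antiproliferative genes BTG1 (−0.40) and TOB1 (−0.31).

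**Figure D3:**
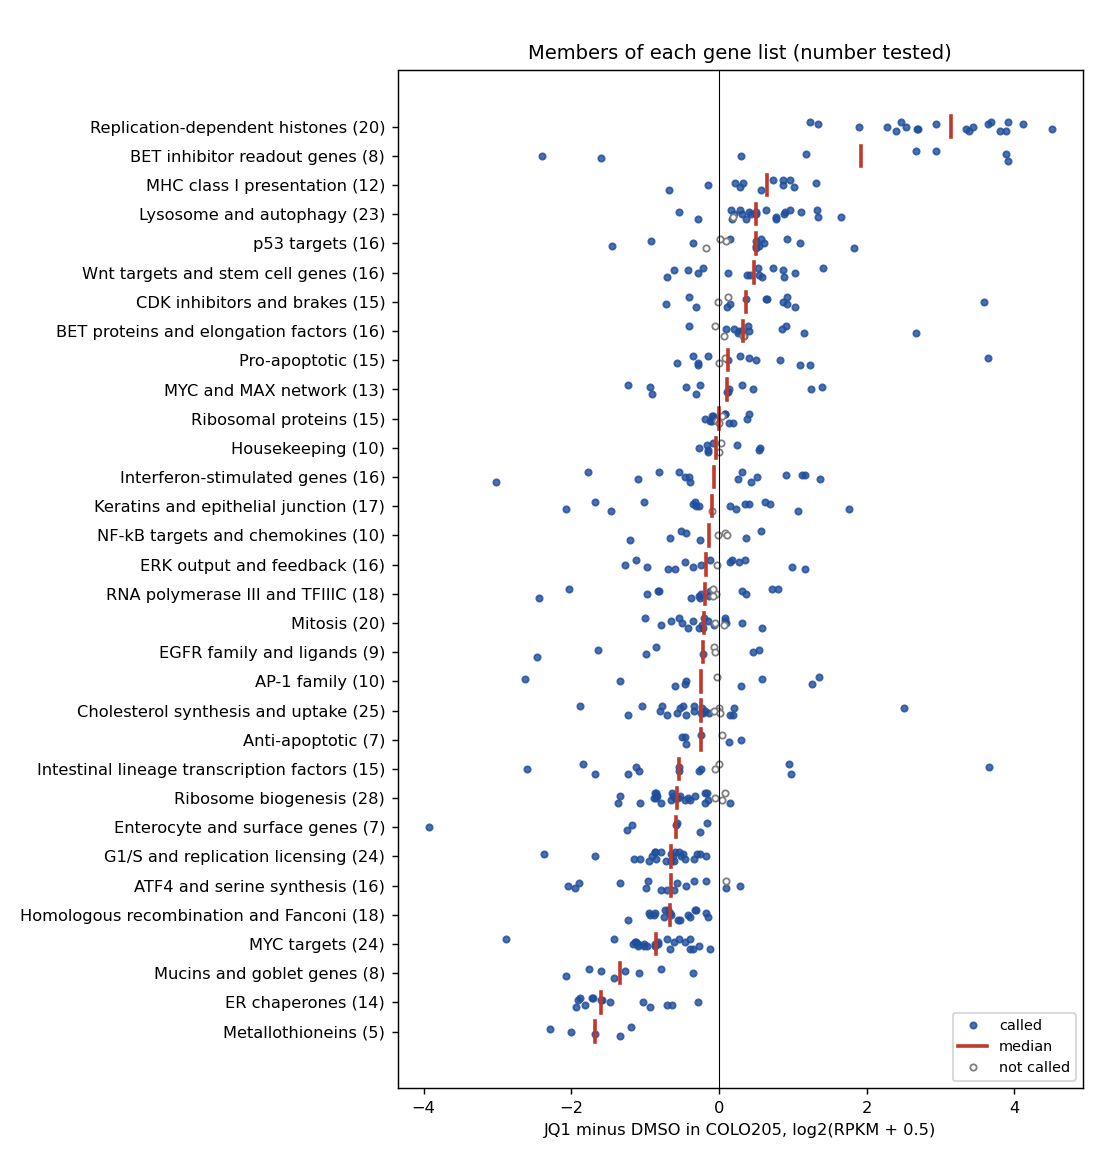
Log2(RPKM + 0.5) change of each tested member of 32 gene lists in COLO205, JQ1 minus DMSO. Filled points were called, open points were not, and bars are list medians, sorted from the highest (replication-dependent histones, 3.14) to the lowest (metallothioneins, −1.67). The ER chaperone members all lie left of 0.

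Histone genes had the highest median of all lists. Of 25 listed genes 20 passed the filter. All 20 tested members rose at least 2-fold, where 4.17% of all genes did, and their median was 3.14. In the fit over 36 libraries, with 22 members, the COLO205 median was 2.81. H3C10 (Entrez 8357) had 47.8, 47.2 and 46.7 RPKM in JQ1 cells, against 1.21, 1.78 and 1.87 RPKM in DMSO cells. H2BC8 (Entrez 8339) had 34.8, 34.7 and 35.7 RPKM in JQ1 cells, against 1.56, 1.45 and 1.63 RPKM in DMSO cells, and H2BC21 (Entrez 8349) had 41.2, 40.1 and 39.1 RPKM in JQ1 cells, against 2.50, 2.00 and 2.07 RPKM in DMSO cells. In each of the 3 genes all JQ1 libraries were above all DMSO libraries, with changes of 4.51, 4.12 and 3.92. The linker histone H1-2 had 151 ± 3.42 RPKM in JQ1 cells and 19.3 ± 0.990 in DMSO cells. Most but not all genes of the list are replication-dependent. Replication-dependent histone transcripts normally end in a stem-loop without a poly(A) tail, and the labels do not say whether poly(A) RNA was selected. Histone genes also have near-identical copies, so single members are uncertain.

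The promoters of these genes share the letters of known histone elements. ATTTGCAT, the octamer bound by OCT1, occurred on either strand in 11 of 19 histone promoters (57.9%), against 1.34% of tested promoters. TATAAA occurred in 13 of 19 (68.4%), against 5.4%. The motifs here and below were chosen after the values were seen. The windows shown for H2BC8 (chr6:26216700-26216751, minus strand) and H2BC21 (chr1:149886692-149886743, minus strand) lie within 100 bases before the start, and capitals mark both motifs.
H2BC8: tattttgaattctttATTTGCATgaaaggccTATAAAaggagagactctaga
H2BC21: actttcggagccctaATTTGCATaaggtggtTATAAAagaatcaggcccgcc

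Genes of the endoplasmic reticulum (ER) folding machinery fell together. All 14 ER chaperone and unfolded-protein-response genes fell, 10 of them at least 2-fold, with a median of −1.59 against −0.02 over all genes. This machinery folds and checks secreted and membrane proteins, and its genes are driven by ATF6 and XBP1 when unfolded proteins accumulate. HSPA5 (Entrez 3309), the ER Hsp70 known as BiP, had 196, 196 and 191 RPKM in JQ1 cells, against 639, 631 and 638 RPKM in DMSO cells. HSP90B1 (Entrez 7184), the ER Hsp90 known as GRP94, had 280.3, 282 and 277 RPKM in JQ1 cells, against 1068, 1042 and 1045 RPKM in DMSO cells. JQ1 and DMSO libraries were far apart for both, with changes of −1.71 ± 0.0187 on the log2 scale (adjusted p = 2.97e-10) and −1.91 ± 0.0187 on the log2 scale (adjusted p = 1.51e-10).

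Smaller members of the group fell as far. CRELD2, a secreted ER stress factor, had 9.07 ± 0.245 RPKM in JQ1 cells and 36 ± 0.859 in DMSO cells. MANF, another secreted factor, had 48.4 ± 1.16 RPKM in JQ1 cells and 179.7 ± 1.63 in DMSO cells. SDF2L1, a cofactor of BiP, changed by −1.81, and HERPUD1, which serves ER-associated degradation, by −1.71. The disulfide isomerases PDIA4 (−1.60) and PDIA6 (−1.48) and the nucleotide exchange factor HYOU1 (−1.59) were close behind. The regulator XBP1 changed by −1.03, with 86.3 ± 1.03 RPKM in JQ1 cells and 177 ± 0.842 in DMSO cells. The degradation genes SEL1L (−0.64) and EDEM1 (−0.29) moved least.

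The fall differed from the response of the other lines in every member. In a fit over all 36 libraries the COLO205 change was lower than the mean change of the other 5 lines for 14 of 14 genes, and lower than that of HT-29 for 14 of 14. Over all 15542 genes of that fit these shares were 33.4% and 28.8%. The median of the list was −1.59 in COLO205, against −0.12 to 0.14 in the other lines. For HSPA5 the difference from the other lines was −1.66 (adjusted p = 2.86e-30) and for HSP90B1 −1.74 (adjusted p = 1.63e-31). COLO205 also had high levels without JQ1. Its DMSO level was above that of every other line for 11 of the 14 genes, and with JQ1 the level lay within the DMSO range of the other lines for 8, above it for 2 and below it for 4. HSPA5 averaged 194 RPKM in COLO205 with JQ1 and 636 with DMSO, beside 109 to 220.4 RPKM in DMSO cells of the other lines.

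**Figure D4:**
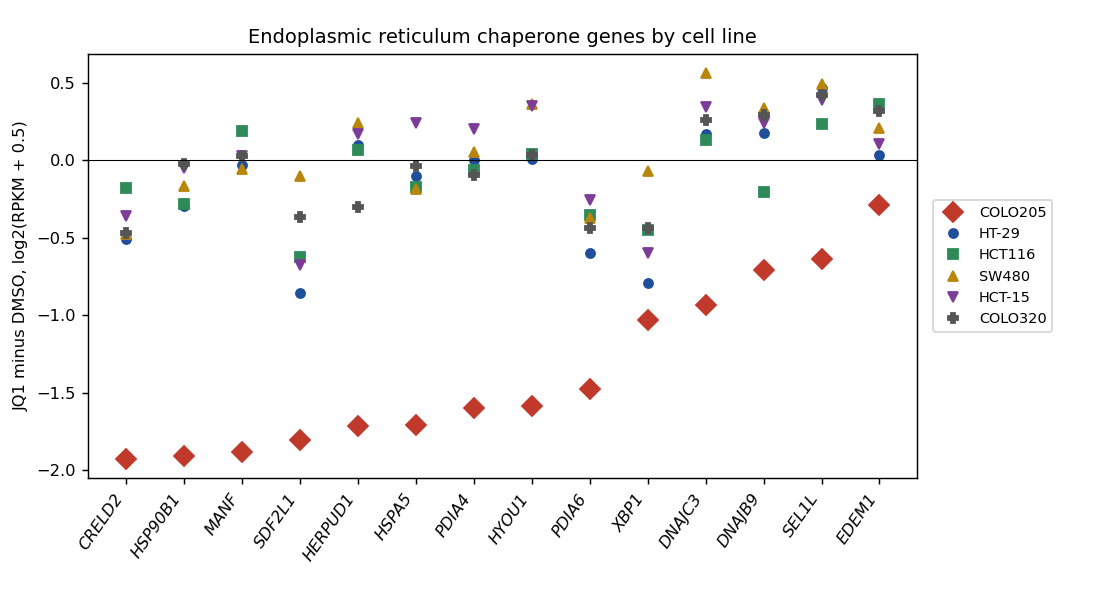
Log2(RPKM + 0.5) change with JQ1 of 14 ER chaperone genes, one column per gene and one symbol per cell line (3 JQ1 and 3 DMSO libraries each). The COLO205 diamonds are the lowest symbol in each column, from −1.93 for CRELD2 to −0.29 for EDEM1.

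The ER stress response element, written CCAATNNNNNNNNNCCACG, marked part of this group. It occurred on either strand in 4 of 14 listed promoters (28.6%), against 14 of the 9507 tested promoters (0.147%) and 22 of all 27305 (0.0806%). Of those 14 genes 11 fell and 2 rose, with a median of −0.79, where 42.8% of all tested genes fell and 38.6% rose. The 10 genes with the element that are not on the list included 7 that fell and 2 that rose, with a median of −0.59. Among them were the ER lectin chaperones CALR, with 365 ± 5.77 RPKM in JQ1 cells and 691 ± 5.33 in DMSO cells, and CANX, with 284 ± 3.86 RPKM in JQ1 cells and 551 ± 6.66 in DMSO cells. The oxidase gene ERO1B had 0.741 ± 0.0530 RPKM in JQ1 cells and 3.15 ± 0.0768 in DMSO cells, and passed the filter through DMSO alone. The 4 listed promoters are shown for HSPA5 (chr9:125241371-125241429, minus strand), HSP90B1 (chr12:103930196-103930359, plus strand), XBP1 (chr22:28800583-28800641, minus strand) and CRELD2 (chr22:49918534-49918592, plus strand). Capitals mark the fixed letters of the element, and HSP90B1 holds it a second time in reverse.
HSPA5: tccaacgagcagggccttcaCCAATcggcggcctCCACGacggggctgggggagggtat
HSP90B1: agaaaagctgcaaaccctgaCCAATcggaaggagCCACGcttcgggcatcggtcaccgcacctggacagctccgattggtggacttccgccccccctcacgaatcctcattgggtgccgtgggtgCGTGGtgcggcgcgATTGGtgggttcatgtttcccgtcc
XBP1: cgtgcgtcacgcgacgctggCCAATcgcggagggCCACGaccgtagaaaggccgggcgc
CRELD2: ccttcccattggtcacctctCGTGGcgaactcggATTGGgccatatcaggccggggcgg

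The amino acid branch of the stress response fell as well. Of 16 ATF4 and serine synthesis genes 13 fell and 2 rose, with a median of −0.66, beside 42.8% and 38.6% of all tested genes. TRIB3, a pseudokinase induced by ATF4, had 10.3 ± 0.647 RPKM in JQ1 cells and 44 ± 1.93 in DMSO cells, and PSAT1, a serine synthesis enzyme, had 23.5 ± 0.752 RPKM in JQ1 cells and 92 ± 2.08 in DMSO cells. The cystine transporter SLC7A11 had 0.653 ± 0.0376 RPKM in JQ1 cells and 3.79 ± 0.178 in DMSO cells, and passed the filter through DMSO alone. ATF4 itself changed by −0.96 and DDIT3, the stress factor CHOP, by −0.99. The risers were the subunits of one amino acid transporter, SLC7A5 (0.29) and SLC3A2 (0.09). Against the mean of the other lines 13 of 16 were lower, where 33.4% of all 15542 genes were. Against HT-29, 5 were higher and 7 lower, where 27.2% and 28.8% of all genes were.

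Intestinal identity genes moved in opposite directions. CDX2 (Entrez 1045), the master homeobox gene of the intestine, had 9.94, 10.3 and 9.42 RPKM in JQ1 cells, against 0.450, 0.213 and 0.328 RPKM in DMSO cells. The DMSO libraries were all under 0.5 RPKM and the JQ1 libraries all above 9, a change of 3.66 ± 0.104 on the log2 scale (adjusted p = 1.3e-08). The other 5 lines had 6.35 to 1099 RPKM of CDX2 in DMSO, so COLO205 had the lowest DMSO level of the 6 lines. CDX1, the close relative of CDX2, had 0.468 ± 0.0475 RPKM in JQ1 cells and 2.96 ± 0.353 in DMSO cells. HNF4G, a nuclear receptor of the gut, changed by −1.68. ELF3 (0.95) and FOXA3 (0.98) rose with CDX2. Over the 15 factors 3 rose and 10 fell (median −0.54), beside 38.6% and 42.8% of all tested genes.

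Among the 12 largest falls of named genes averaging at least 5 RPKM in DMSO were those of BAAT, PCK1, GPA33, APOBEC1 and AGT. BAAT (Entrez 570), which couples bile acids to glycine or taurine, had 0.730, 0.814 and 1.06 RPKM in JQ1 cells, against 77.3, 72.8 and 75.6 RPKM in DMSO cells. No other tested gene fell as far, with a change of −5.80 ± 0.0810 on the log2 scale (adjusted p = 6.12e-10). PCK1 (Entrez 5105), the rate-limiting enzyme of gluconeogenesis, had 0.989, 1.18 and 1.24 RPKM in JQ1 cells, against 50.5, 49.2 and 50 RPKM in DMSO cells. GPA33 (Entrez 10223), a surface glycoprotein of intestinal epithelium, had 7.85, 7.60 and 7.82 RPKM in JQ1 cells, against 170.0, 171 and 175 RPKM in DMSO cells. The groups were wide apart in both genes, with changes of −4.95 ± 0.0579 on the log2 scale (adjusted p = 4e-10) and −4.38 ± 0.0236 on the log2 scale (adjusted p = 1.26e-11). APOBEC1, the cytidine deaminase that edits APOB transcripts, had 0.749 ± 0.197 RPKM in JQ1 cells and 25.9 ± 0.456 in DMSO cells. FABP1, a fatty acid carrier, had 4 reads over the JQ1 libraries and 336 over the DMSO libraries, and 1 JQ1 library had 0. AGT, the angiotensin precursor, had 0.346 ± 0.0307 RPKM in JQ1 cells and 11 ± 0.653 in DMSO cells. APOBEC1 and AGT passed the filter through their DMSO libraries alone. On the enterocyte list of 21 genes only 7 passed the filter, FABP1 through its DMSO libraries alone. All 7 fell (6 of 7 were called lower under quantile scaling), where 42.8% of all tested genes did. LGALS4, a brush border lectin, had 85.1 ± 3.00 RPKM in JQ1 cells and 203 ± 5.20 in DMSO cells. VIL1, the microvillus protein villin, had 123 ± 1.90 RPKM in JQ1 cells and 138 ± 1.42 in DMSO cells.

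Secretory and surface glycoprotein genes fell too. Of 19 listed mucin and goblet genes 8 were tested. All 8 fell, 6 at least 2-fold, where 42.8% and 6.73% of all tested genes did, and the median was −1.35. MUC1 (Entrez 4582), a membrane mucin, had 8.80, 9.04 and 9.39 RPKM in JQ1 cells, against 31.3, 33.8 and 30.7 RPKM in DMSO cells. The lowest DMSO value exceeded every JQ1 value, a change of −1.76 ± 0.0422 on the log2 scale (adjusted p = 5.91e-09). AGR2, an ER disulfide isomerase needed for mucin assembly, had 94.9 ± 1.83 RPKM in JQ1 cells and 288 ± 3.77 in DMSO cells. The trefoil factor TFF1 had 0.966 ± 0.232 RPKM in JQ1 cells and 5.63 ± 0.192 in DMSO cells. TFF1 thus averaged under 1 RPKM with JQ1 and passed the filter only through its DMSO libraries. ST6GALNAC1, which makes the sialyl-Tn sugar of mucins, had 1.86 ± 0.208 RPKM in JQ1 cells and 27.7 ± 0.571 in DMSO cells. CEACAM1, an adhesion molecule, had 1.51 ± 0.0849 RPKM in JQ1 cells and 7.99 ± 0.352 in DMSO cells. CEACAM5, the carcinoembryonic antigen, had 0.209 ± 0.0180 RPKM in JQ1 cells and 1.13 ± 0.0757 in DMSO cells, so it passed the filter only through DMSO. CEACAM19, the third CEACAM gene tested, was not called (0.05, adjusted p = 0.683).

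Keratin and junction genes split, 8 up and 8 down of 17, beside 38.6% and 42.8% of all tested genes. KRT19 (Entrez 3880), a keratin of simple epithelia, had 1486, 1494 and 1459 RPKM in JQ1 cells, against 428, 427 and 450.4 RPKM in DMSO cells. All JQ1 libraries were above all DMSO libraries, a change of 1.76 ± 0.0251 on the log2 scale (adjusted p = 6.3e-10). Its partner KRT8 changed by 0.69, and the desmosomal plaque gene DSP had 69.3 ± 3.34 RPKM in JQ1 cells and 32.8 ± 2.04 in DMSO cells. KRT7 fell (0.418 ± 0.131 RPKM in JQ1 cells and 2.42 ± 0.124 in DMSO cells), as did KRT23 (6.58 ± 0.152 RPKM in JQ1 cells and 19 ± 0.543 in DMSO cells) and the pore-forming claudin CLDN2 (0.126 ± 0.0236 RPKM in JQ1 cells and 2.13 ± 0.107 in DMSO cells). KRT7 and CLDN2 passed the filter through their DMSO libraries alone. E-cadherin, CDH1, changed by 0.35 and EPCAM by −0.27. Of 11 mesenchymal genes 9 were below the filter. S100A4 changed by 0.06, a call lost in the fit over 36 libraries, with no filter and without each of 4 libraries in turn (adjusted p = 0.0556 to 0.584).

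Wnt target and stem cell genes rose on balance. Of 16 tested 11 rose and 5 fell, with a median of 0.48, beside 38.6% and 42.8% of all tested genes. NKD1 (Entrez 85407), a feedback inhibitor of Wnt signalling, had 60.9, 61.1 and 62.9 RPKM in JQ1 cells, against 22.8, 22.7 and 23.4 RPKM in DMSO cells. The groups were separate, with a change of 1.41 ± 0.0240 on the log2 scale (adjusted p = 1.35e-09). ASCL2, the transcription factor of crypt base stem cells, had 70.1 ± 3.19 RPKM in JQ1 cells and 34 ± 2.23 in DMSO cells, and LGR5, the stem cell receptor, had 18.6 ± 0.861 RPKM in JQ1 cells and 9.96 ± 0.278 in DMSO cells. SP5 changed by 0.88 and the destruction complex gene AXIN2 by 0.73. SMOC2 (−0.71) and LEF1 (−0.60) led the falls. Against the mean of the other lines 13 of 19 genes of the list were higher and 5 lower, where 34.1% and 33.4% of all genes were. Against HT-29, 9 were higher and 7 lower, where 27.2% and 28.8% of all genes were.

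Growth factor and AP-1 genes changed by member. FOSL1 (Entrez 8061), the AP-1 subunit FRA1, had 4.25, 5.14 and 5.04 RPKM in JQ1 cells, against 31.5, 33.6 and 31.4 RPKM in DMSO cells. DMSO values were all above JQ1 values, a change of −2.62 ± 0.0660 on the log2 scale (adjusted p = 7.18e-09). BATF also fell, with 12.4 ± 0.444 RPKM in JQ1 cells and 32.1 ± 1.70 in DMSO cells. JUND had 102 ± 3.98 RPKM in JQ1 cells and 39.7 ± 0.990 in DMSO cells and JUN 24.6 ± 0.564 RPKM in JQ1 cells and 10.02 ± 0.761 in DMSO cells, both higher with JQ1. Over the AP-1 family 4 of 10 rose and 5 fell, beside 38.6% and 42.8% of all tested genes. The AP-1 site TGANTCA occurred in 9.48% of the promoters of genes that fell at least 2-fold, in 3.01% of those that rose at least 2-fold and in 4.45% of all tested. Among EGFR ligands, epiregulin, EREG, had 1.68 ± 0.106 RPKM in JQ1 cells and 11.5 ± 0.582 in DMSO cells, and HBEGF had 1.08 ± 0.133 RPKM in JQ1 cells and 4.44 ± 0.110 in DMSO cells, while TGFA changed by −0.85. The receptor genes ERBB2 (0.54) and ERBB3 (0.47) rose, and EGFR was not called (−0.07, adjusted p = 0.218). Of 16 ERK output genes 6 rose and 9 fell, beside the same 38.6% and 42.8%. The largest changes were those of ETV4 (−1.27), EGR1 (1.17), MYEOV (−1.12) and ETV5 (0.98).

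The apoptosis gene with the largest change was a BH3-only gene. BMF (Entrez 90427), a sensor that binds and blocks BCL2 proteins, had 11.2, 10.9 and 11 RPKM in JQ1 cells, against 0.437, 0.363 and 0.473 RPKM in DMSO cells. The JQ1 libraries were all above 10 RPKM and the DMSO libraries all under 0.5, a change of 3.64 ± 0.0629 on the log2 scale (adjusted p = 1.4e-09). BMF thus passed the filter through its JQ1 libraries alone, which set its direction in advance. Its relative BIM, BCL2L11, had 21.8 ± 0.519 RPKM in JQ1 cells and 12.1 ± 0.270 in DMSO cells. BNIP3L changed by 1.23 and the initiator caspase CASP9 by 1.10, while BID (−0.56) and BAX (−0.35) fell. In all 8 of 15 pro-apoptotic genes rose and 5 fell (median 0.13), beside 38.6% and 42.8% of all tested genes. Of 7 anti-apoptotic genes 2 rose and 4 fell (median −0.25), with MCL1 at 0.30, the caspase-8 inhibitor CFLAR at −0.50 and BCL2L1 not called (0.05, adjusted p = 0.216). Of 16 p53 targets 10 rose and 3 fell (median 0.50), and TP53INP1 passed the filter through its JQ1 libraries alone. The death receptor TNFRSF10B had 54.2 ± 1.46 RPKM in JQ1 cells and 25.1 ± 0.0686 in DMSO cells and TP53INP1 1.77 ± 0.109 RPKM in JQ1 cells and 0.140 ± 0.0396 in DMSO cells, whereas the stress cytokine GDF15 had 4.02 ± 0.591 RPKM in JQ1 cells and 11.8 ± 0.540 in DMSO cells and the p53 ligase MDM2 7.24 ± 0.109 RPKM in JQ1 cells and 14.1 ± 0.247 in DMSO cells.

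Antigen presentation rose while interferon-stimulated genes divided. Of 12 MHC class I genes 10 rose and 2 fell, with a median of 0.65. HLA-B had 107 ± 1.97 RPKM in JQ1 cells and 42.7 ± 0.625 in DMSO cells and HLA-E 69.8 ± 1.34 RPKM in JQ1 cells and 34.4 ± 0.954 in DMSO cells. The light chain B2M (Entrez 567) had 1981, 1957 and 1908 RPKM in JQ1 cells, against 1019, 987 and 985 RPKM in DMSO cells. Its groups did not overlap, and its change was 0.97 ± 0.0232 on the log2 scale (adjusted p = 5.91e-09). HLA genes are polymorphic and similar to each other, so their single values are uncertain. The immunoproteasome gene PSMB8 (−0.68) and the peptide transporter gene TAP2 (−0.14) fell. Of the 12 genes 11 were higher than the mean of the other lines and 0 lower, where 34.1% and 33.4% of all 15542 genes were. Against HT-29, 2 were higher and 7 lower, where 27.2% and 28.8% of all genes were. Of 16 interferon-stimulated genes 8 rose and 8 fell, with OASL (−3.02) and IFIT3 (−1.77) lowest and IRF7 (1.36) and STAT2 (1.16) highest. NF-kB targets had 2 of 10 higher and 5 lower, with TNFAIP2 at −1.20, RELB at −0.66 and TNFAIP3 at −0.51, while the inhibitor NFKBIA changed by 0.57. Within COLO205, 38.6% of all 12532 tested genes rose and 42.8% fell.

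Lysosomal genes rose and metal-binding genes fell. Of 23 lysosome and autophagy genes 20 rose and 2 fell, with a median of 0.51, beside 38.6% and 42.8% of all tested genes. CTSB (Entrez 1508), the protease cathepsin B, had 845, 843 and 828 RPKM in JQ1 cells, against 330.5, 324 and 333 RPKM in DMSO cells. The groups were separate, with a change of 1.35 ± 0.0192 on the log2 scale (adjusted p = 6.3e-10). The sialidase NEU1 had 90.2 ± 1.95 RPKM in JQ1 cells and 28.2 ± 0.249 in DMSO cells, the autophagy receptor SQSTM1 478 ± 4.15 RPKM in JQ1 cells and 191 ± 3.81 in DMSO cells and the cholesterol carrier NPC2 85.9 ± 3.14 RPKM in JQ1 cells and 39.3 ± 0.735 in DMSO cells. TFEB, a transcription factor of lysosomal genes, fell (−0.55). All 5 metallothionein genes tested fell at least 2-fold, with a median of −1.67. MT2A had 57.9 ± 2.23 RPKM in JQ1 cells and 147 ± 5.38 in DMSO cells, MT1X 18.6 ± 1.32 RPKM in JQ1 cells and 60.5 ± 2.32 in DMSO cells and MT1G 3.84 ± 0.919 RPKM in JQ1 cells and 16.7 ± 1.32 in DMSO cells. MT1F had 0.905 ± 0.434 RPKM in JQ1 cells and 6.16 ± 1.18 in DMSO cells. The metallothionein genes are near-identical copies, so their single values are uncertain. Of 8 in the wider fit 6 were lower than the mean of the other lines and 1 was higher, where 33.4% and 34.1% of all genes were.

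**Figure D5:**
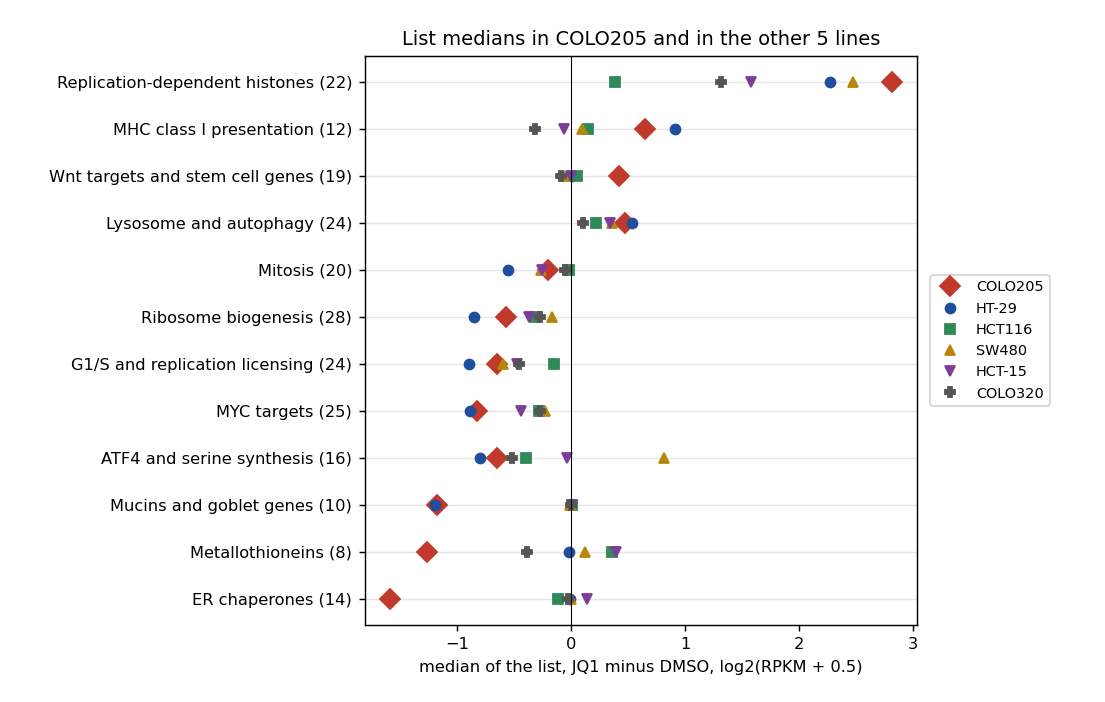
Median log2(RPKM + 0.5) change with JQ1 of 12 gene lists in COLO205 and in 5 other lines, with the number of members in the 36-library fit in brackets. COLO205 (diamonds) stands apart for ER chaperones (−1.59) and metallothioneins (−1.27), and lies beside HT-29 for MYC targets and mucins.

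Sterol genes fell by modest amounts with 1 exception. Of 25 cholesterol genes 17 fell and 4 rose, with a median of −0.24, beside 42.8% and 38.6% of all tested genes. Under quantile scaling 16 fell and 7 rose. TM7SF2 (Entrez 7108), a sterol reductase, had 24.1, 25.4 and 23.7 RPKM in JQ1 cells, against 3.66, 3.53 and 4.55 RPKM in DMSO cells. It was higher in all 3 JQ1 libraries, a change of 2.50 ± 0.0808 on the log2 scale (adjusted p = 2.6e-08). The sterol carrier STARD4 changed by −1.23, the demethylase CYP51A1 by −1.04 and the regulator SREBF1 by 0.20.

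Other large changes named by size fell outside these groups. FOXQ1 (Entrez 94234), a forkhead transcription factor, had 51.4, 50.4 and 53.3 RPKM in JQ1 cells, against 7.83, 7.92 and 7.53 RPKM in DMSO cells. NEAT1 (Entrez 283131), the noncoding scaffold of nuclear paraspeckles, had 126, 127 and 135 RPKM in JQ1 cells, against 19.3, 24.9 and 18.6 RPKM in DMSO cells. The JQ1 libraries were all above the DMSO libraries for both, with changes of 2.66 ± 0.0319 on the log2 scale (adjusted p = 4e-10) and 2.61 ± 0.0969 on the log2 scale (adjusted p = 5.57e-08). LEMD1, a LEM domain gene, had 17.9 ± 0.358 RPKM in JQ1 cells and 0.993 ± 0.156 in DMSO cells, and TP53INP2, an autophagy regulator, 10.3 ± 0.151 RPKM in JQ1 cells and 0.915 ± 0.0579 in DMSO cells. TP53INP2 passed the filter through its JQ1 libraries alone. PRAF2 changed by 2.36. The microRNA genes MIR24-1 and MIR3074 overlap on the genome and rest on few reads. MIR24-1 had 60 reads over the JQ1 and 4 over the DMSO libraries. MIR3074 had 76 reads over the JQ1 and 7 over the DMSO libraries, so both are uncertain.

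Among the remaining large falls, CA9 (Entrez 768), a carbonic anhydrase known as a hypoxia marker, had 1.81, 2.05 and 1.68 RPKM in JQ1 cells, against 56.4, 54.9 and 57.2 RPKM in DMSO cells. IL1R2 (Entrez 7850), a decoy receptor for interleukin-1, had 3.17, 3.05 and 3.61 RPKM in JQ1 cells, against 48.6, 48.7 and 49.5 RPKM in DMSO cells. No JQ1 library reached the DMSO range, which the rule that named these genes required and 82.9% of all genes met. The changes were −4.60 ± 0.0566 on the log2 scale (adjusted p = 4e-10) and −3.71 ± 0.0531 on the log2 scale (adjusted p = 6.3e-10). The noncoding RNAs LINC02870 and MANCR changed by −4.01 and −3.51, and the membrane protein gene TMEM150B by −3.62. Both noncoding RNAs passed the filter through their DMSO libraries alone. The 10 most abundant genes, TPT1 and 9 mitochondrial genes (COX1, COX2, COX3, ATP6, ATP8, ND3, ND4, ND4L and CYTB), were all higher with JQ1. Their changes ran from 0.39 for ATP6 to 0.70 for CYTB, and under quantile scaling 6 of the 10 lost their call, with TPT1 (−0.04) and ATP8 (−0.05) turning negative. Of 10 housekeeping genes 3 rose and 5 fell, with a median of −0.04, and under quantile scaling 4 rose and 4 fell.

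At 2-fold or more COLO205 shared more genes with HT-29 than with any other line. In the fit over 36 libraries 542 genes rose and 875 fell in COLO205. HT-29 shared 286 of the rises, 52.8% of those in COLO205 and 44.9% of its own, and 352 of the falls, 40.2% and 38.4%. Rises and falls of this size were 3.49% and 5.63% of 15542 genes in COLO205, 4.1% and 5.9% in HT-29 and 1.42% and 3.14% in HCT116. For SW480 these shares were 3.23% and 4.88%. HCT-15 had 3.39% rises and 3.55% falls, and COLO320 had 1.21% and 4.66%. With the other 4 lines the shared rises were 80 to 161 and the shared falls 145 to 193. These made up 30.4% to 52.7% of each line's own rises, with COLO320 highest and above HT-29, and 20% to 33.9% of its own falls. There were 188 rises (34.7%) and 351 falls (40.1%) at this size in COLO205 that were at this size in none of the other 5 lines. In all 5 others, 28 rises and 30 falls were shared. An effect past the line in one line and short of it in another is not by itself a difference, which the next contrasts test.

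The change in COLO205 was at least 1 log2 unit above the mean change of the other 5 lines for 234 genes (1.51% of 15542) and at least 1 below it for 473 (3.04%). CDX2 differed by 3.65 (adjusted p = 1.05e-24), with changes of −0.39 to 0.70 in the other lines. CDKN1C differed by 3.61 (adjusted p = 2.82e-24), and it fell in COLO320 (−1.43). FOXQ1 differed by 2.82, LEMD1 by 3.39 and the orphan receptor gene GPRC5C by 2.46. BMF differed by 2.62 from the mean of the other lines and rose by 3.08 in HT-29. HEXIM1 rose more than the mean of the others, by 1.06 (adjusted p = 2.07e-22). MYC fell more than that mean, with a difference of −0.48 (adjusted p = 1.71e-15), but its change in HT-29 was larger (−1.35, against −1.23 in COLO205).

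The 8 largest differences downward from the other lines included genes with very low levels in those lines. BAAT differed by −5.65, PCK1 by −4.91, APOBEC1 by −4.26 and AGT by −3.74. Their DMSO levels in the other lines reached at most 0.267, 0.130, 0.289 and 0.212 RPKM, so a fall of this size could not be measured there. CD244, an NK cell receptor gene, differed by −3.48 and was at most 0.00589 RPKM in the others. GPA33 differed by −3.91, with HT-29 the highest of the others in DMSO at 1.94 RPKM and a change of −1.87 there. FABP1 differed by −3.47, and HT-29 had 3.02 RPKM of it in DMSO and a change of −2.29. For GPA33 and FABP1 too, falls as large as in COLO205 could not be measured from these levels. KLF2 (Entrez 10365), a Krüppel-like factor known from endothelium and resting lymphocytes, had 4.62, 5.11 and 5.79 RPKM in JQ1 cells, against 30.6, 31.2 and 34.3 RPKM in DMSO cells. The groups did not overlap, and its change of −2.52 compared with a mean of 1.07 in the other lines, a difference of −3.60 (adjusted p = 1.09e-21). KLF2 rose in HCT116, SW480, HCT-15 and COLO320, by 1.09 to 2.01, and its DMSO level in the other lines reached 28.8 RPKM.

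Against HT-29 alone, the change in COLO205 was at least 1 log2 unit higher for 352 genes (2.26% of 15542) and lower for 547 (3.52%). FGF19, an intestinal hormone that restrains bile acid synthesis, had 43.2 ± 0.558 RPKM in JQ1 cells and 66.5 ± 2.39 in DMSO cells of COLO205, beside 0.257 ± 0.0626 and 14.7 ± 0.940 RPKM in JQ1 and DMSO cells of HT-29. The change was −0.62 in COLO205 and −4.33 in HT-29, a difference of 3.72 (adjusted p = 2.03e-25). ASCL2 had 70.1 ± 3.19 RPKM in JQ1 cells and 34 ± 2.23 in DMSO cells of COLO205, beside 0.589 ± 0.0900 and 3.05 ± 0.301 RPKM in JQ1 and DMSO cells of HT-29, so that it rose in COLO205 and fell in HT-29, a difference of 2.74 (adjusted p = 3.91e-19). CDX2, CDKN1C, FOXQ1 and LEMD1 also differed upward, by 3.45, 3.49, 3.04 and 2.81. CDK15, GALNT9 and TGM5 differed by −3.48, −3.44 and −3.41, and HT-29 had almost none of them in DMSO. Of 20 mitosis genes 18 changed more upward or less downward than in HT-29 and 0 more downward, and for ribosome biogenesis the counts were 23 and 3 of 28. Of all 15542 genes 27.2% were higher and 28.8% lower in this contrast. The MYC fall was slightly smaller than in HT-29, by 0.12 (adjusted p = 0.00335).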

How the data were processed

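RNA sequencing of COLO205 cells with 0.5 µM JQ1 or DMSO for 24 h gave 3 libraries per group, grouped by the labels. RPKM values for each gene were calculated and deposited by the authors. The submitters' processing notes name GSNAP, DESeq and limma, without versions, and the build NCBIM37, a mouse assembly name, so no coordinates of the table's genes are given. Symbols were matched by Entrez number to RefSeq genes of GRCh38.p14. They named 12036 of the 12532 tested genes, and 159 genes repeat another gene's values. Read counts recovered from the RPKM steps were whole within 1e-05 read for 100% of 23499 genes above 0, and put the 6 libraries at 20.2 to 26.0 M reads. Chi-square per gene was 1.24 to 2.06 between replicates, so no pair agreed within sampling noise.

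Tests used limma 3.58.1 in R 4.3.3 on log2(RPKM + 0.5), with a mean-variance trend, two-sided, with Benjamini-Hochberg adjustment over all genes of each fit. The 6-library fit had 4 residual degrees of freedom. Contrasts between lines used all 36 libraries and the 15542 genes with at least 1 RPKM in 3 or more of them. The method was tested on simulated counts. Changes of 1 log2 unit were recovered in 100% of genes for JQ1 minus DMSO in COLO205, in a run of 12392 genes. Falls and rises of 0.5 log2 units were recovered in 75.8% and 83.9%. Of its unchanged genes 0.107% were called. The changed genes were few and well covered, the spread was set alike for all genes, and no shift in scaling was simulated. These rates therefore do not cover low genes or data in which most genes change.

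Genes were named by a rule. It always names MYC, CCAT1, HEXIM1, SERPINI1, BRD2, FOSL1, CDKN1A and GTF3C6. It adds the 12 largest rises and the 12 largest falls among called genes with a symbol, separate groups and a mean of at least 5 RPKM in the higher group. Their separation and call are thus set by the rule. It takes up to 4 called members per list and up to 2 that moved against it. It also takes the 8 largest called differences each way between lines, and the 10 most abundant genes. Further list members were named after their values were seen. Histone genes were left out of the rankings. Some genes that the rule names are not reported here. Members and lists were chosen with earlier results of these data known. Alternatives changed the pseudocount, the filter, the scaling, the test, the libraries in the fit and the replicate block.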

Additional observations from a re-analysis of the deposited data

Results flagged for a closer look

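The contrast of the JQ1 change in COLO205 with the mean change of the other 5 lines named 16 genes. They had the largest differences among called genes, so their call was a condition of naming. Differences in log2(RPKM + 0.5) change were positive for CDX2 (3.65), CDKN1C (3.61), LEMD1 (3.39), MIR24-1 (3.25), FOXQ1 (2.82), MIR3074 (2.70), BMF (2.62) and GPRC5C (2.46). They were negative for BAAT (−5.65), PCK1 (−4.91), APOBEC1 (−4.26), GPA33 (−3.91), AGT (−3.74), KLF2 (−3.60), CD244 (−3.48) and FABP1 (−3.47). DMSO levels of BAAT, PCK1, APOBEC1, AGT and CD244 were very low in the other lines, where such falls could not be measured. Those of GPA33 and FABP1 reached at most 1.94 and 3.02 RPKM there, also too low for falls as large as in COLO205.

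The contrast with HT-29 alone named 16 genes in the same way. Differences were positive for FGF19 (3.72), MIR24-1 (3.53), CDKN1C (3.49), CDX2 (3.45), FOXQ1 (3.04), MIR3074 (2.83), LEMD1 (2.81) and ASCL2 (2.74). They were negative for BAAT (−5.24), PCK1 (−4.73), APOBEC1 (−3.80), AGT (−3.50), CDK15 (−3.48), CD244 (−3.46), GALNT9 (−3.44) and TGM5 (−3.41). HT-29 had very low DMSO levels of these genes with negative differences, so such falls could not be measured there. The values of MIR24-1 and MIR3074 rest on 60 and 76 reads over the 3 JQ1 libraries.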

How the results depend on the processing

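Of the 8 counts of genes reported for the comparisons, all but 1 stayed within 1.5 times of their value under each alternative run. The exception was the count of genes that fell at least 2-fold, which was 545 with a filter of 5 RPKM, where fewer genes were tested, against 843. Leaving out 1 library at a time gave 4669 to 4724 genes that rose, 5193 to 5230 that fell, 512 to 535 that rose at least 2-fold and 828 to 859 that fell at least 2-fold. Limma's voom on the recovered reads, with TMM factors, gave 740 and 972 at 2-fold, and a pseudocount of 1 gave 387 and 680. Replicate numbers did not pair the samples, with correlations of −0.02 to 0.01 between same-numbered libraries. With the number as a replicate block 4784 genes rose and 5305 fell, and 523 and 845 did so at least 2-fold. For the contrast with the other lines the block gave 5234 higher and 5107 lower, and for that with HT-29 4131 and 4400. Among 236 named values, 3634 alternatives kept direction and call, 23 lost the call, 2 gained it and 2 turned, each setting counted once per value. The values that turned were TPT1 (−0.0393) and ATP8 (−0.0503) under quantile scaling, for which the cause was not tested. The difference of GTF3C6 from the other lines lost its call without each of 4 COLO205 libraries in turn or without HT-29 or SW480, with values of 0.14 to 0.21. That of CDKN1A lost it without HCT-15 (−0.03). Against HT-29, FOSL1 lost its call at a pseudocount of 0.1 and CCAT1 under voom. Depth limits genes such as FABP1, for which a library at 0 could still hold 3 reads (95% bound, counting error only).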
